A study of Mus musculus with 3 samples.

Results

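Secreted and membrane Wnt antagonists are described here as a set of 10 genes, taken by symbol from the 32285 features of the count matrices: Sfrp1, Sfrp2, Frzb, Wif1, Dkk1, Dkk2, Dkk3, Sostdc1, Shisa2 and Shisa3. All 10 were present once in the feature table. The data are single-cell RNA-sequencing libraries of pooled otic vesicles, the epithelial sacs that give rise to the inner ear, dissected from E10.5 mouse embryos. The CD group is 1 library from embryos heterozygous for Sox9Y440X, an allele of the transcription factor SOX9 with a premature stop. The wild type (WT) group is 2 libraries, WT replicate 1 and WT replicate 2. No other allele or agent is given for either group. The embryos of each library were pooled, and the labels do not say whether the WT pools came from separate litters. The p-values rest on how far these libraries spread, which may be technical variation, and on the spread borrowed across genes. The question of the series is the opposition between SOX9 and Wnt in the otocyst.

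Wnt proteins signal by bringing Frizzled receptors and the co-receptors Lrp5 and Lrp6 together, which stabilises beta-catenin and switches on genes bound by TCF/LEF factors. Antagonists act at different points of this step. Sfrp1, Sfrp2, Frzb and Wif1 are secreted proteins that bind Wnt ligands. Dkk1, Dkk2 and Sostdc1 bind the Lrp co-receptors, and Sostdc1 also binds BMP ligands, while Dkk3 is a divergent member of the Dickkopf family whose part in Wnt signalling is less settled. Shisa proteins hold Frizzled receptors in the endoplasmic reticulum. In the otocyst, Wnt from the dorsal hindbrain is known to favour dorsal and vestibular fates, among them the endolymphatic duct.

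Cells in which 1000 or more genes were detected and mitochondrial transcripts made up no more than 10% of the UMIs (unique molecular identifiers, 1 per captured transcript) were kept, which left 8548 CD cells and 6564 and 11018 cells of WT replicates 1 and 2. Otic cells had at least 1 UMI of the epithelial gene Epcam and at least 2 of the otic genes Fbxo2, Hmx2, Hmx3 and Pax2 together. This gate held 2778 CD cells against 2537 and 4083 WT cells, with median depths of 22616.5 UMIs in CD and 25431 and 18752 in WT. Mesenchymal cells had at least 2 UMIs of Prrx1 and Twist1 together and none of Epcam, and numbered 1860 in CD against 1083 and 2508 in WT. The gates use none of the 10 antagonists. Otic markers outside the gate (Oc90, Sox10 and 7 others) were all above 5 CPM (UMIs per 1000000 UMIs of the gate) in otic cells of each library, and their summed level was 1014 CPM in CD and 1437 and 1856 in WT otic cells, against 179 in CD and 166 and 219 in WT mesenchyme. Mesenchymal markers outside the gate summed to 110.5 in CD and 73.9 and 116 in WT otic cells, against 1151 in CD and 1039 and 935 in WT mesenchyme. Neuroblast and neuron markers were present in both gates, at 245 in CD and 203 and 270 in WT otic cells. In mesenchyme they summed to 230 in CD and 149 and 287 in WT. Neural tube markers summed to 14.3 in CD and 18.1 and 10.3 in WT otic cells, against 40.4 in CD and 77.3 and 37.6 in WT mesenchyme. Globin and other erythroid transcripts were present in both gates, at a summed 6039 CPM in CD against 3368 and 5969 in WT otic cells, and at 13509 in CD against 5524 and 6126 in WT mesenchyme. Pairs of libraries shared 28 to 55 cell barcodes. Sox9 itself stood at 688 CPM in CD otic cells and at 409 and 338 in WT otic cells; a 3' tag count cannot tell the 2 alleles apart.

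Each UMI marks the 3' end of a transcript, so CPM values do not scale with gene length, although genes may still differ in how well they are captured. In otic cells Sfrp1 was the most abundant member, at 230 ± 74.7 CPM (mean ± SD, n = 3 libraries). Shisa2 followed at 44.0 ± 7.49, Sfrp2 at 21.9 ± 3.69, Sostdc1 at 13.01 ± 2.33 and Dkk1 at 10.1 ± 3.68. Sostdc1 and Dkk1 overlapped between libraries, and no other neighbours in this order did. Dkk3 (4.35 ± 0.494), Frzb (2.51 ± 0.628), Dkk2 (0.820 ± 0.113) and Wif1 (0.382 ± 0.0976) were lower, and Shisa3 was at the edge of detection, with 8 UMIs in all CD otic cells and 2 and 11 in the WT otic cells.

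The order in mesenchyme was different. Sfrp1 again led, at 152 ± 39.5 CPM, and Sfrp2 (26.1 ± 1.31) and Frzb (25.8 ± 3.42) came next with overlapping libraries. Shisa2 (12.9 ± 3.61) and Dkk1 (8.22 ± 2.92) also overlapped, Dkk1 overlapped in turn with Dkk3, and so did Dkk3, Dkk2 and Sostdc1 with each other at 4.45 ± 1.53, 3.62 ± 0.737 and 3.61 ± 1.03. Shisa3 (0.825 ± 0.424) and Wif1 (0.574 ± 0.205) were the lowest and overlapped.

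**Figure D1:**
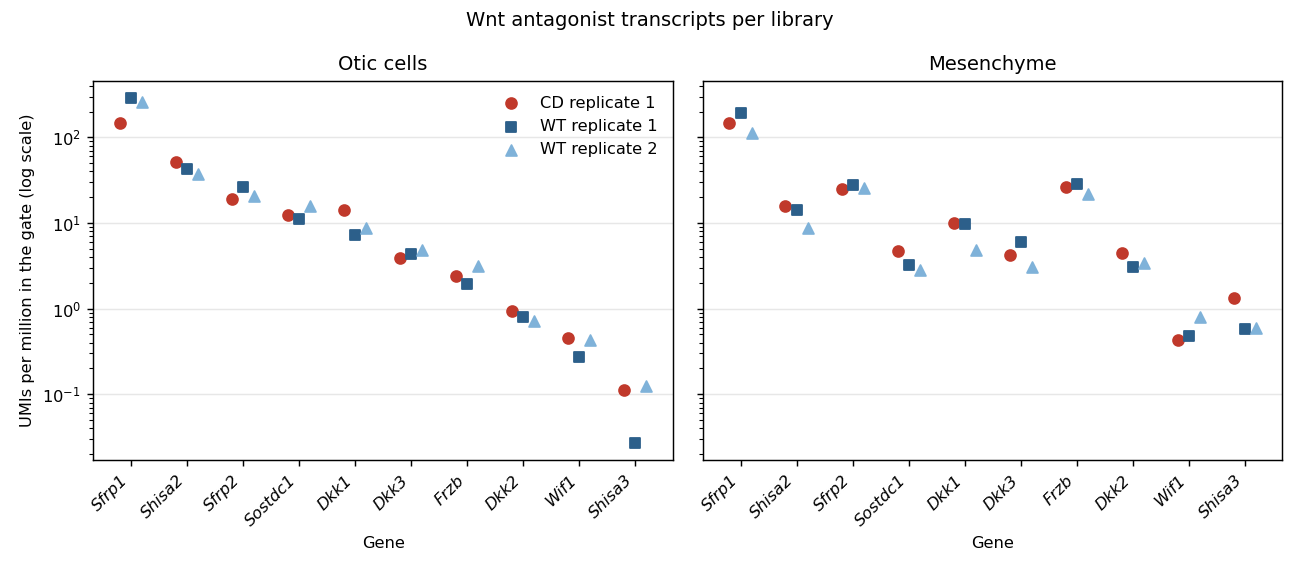
CPM (log axis) of the 10 antagonists in otic cells and in mesenchyme, with 1 point per library, CD left of WT. Sfrp1 lies above 100 CPM in all 3 libraries in both gates, and Frzb lies between 22.0 and 28.8 CPM in mesenchyme and between 1.93 and 3.18 in otic cells.

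In endothelial and neuronal cells the levels of Sfrp1 were lower. Cells gated as endothelial (Cdh5, Pecam1 and Kdr) held 3.83 CPM of Sfrp1 in CD and 4.66 and 21.7 in WT. Cells gated as neuronal (Neurod1, Elavl3 and Stmn2) held 25.2 in CD and 38.8 and 27.2 in WT. Sfrp2 in neuronal cells was at 29.2 in CD and at 41.7 and 6.42 in WT, so the WT libraries lay far apart. Shisa2 in neuronal cells was at 22.3 in CD and at 25.99 and 17.0 in WT.

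Otic cells differed from mesenchyme in the level of 6 of the 10 antagonists, 2 higher and 4 lower in otic cells (edgeR's quasi-likelihood test with the library as a block, Benjamini-Hochberg adjusted p under 0.05). The background is wide: 63.4% of the 16248 genes tested passed in this comparison, 32.9% higher and 30.5% lower, so this share is no more than that of all genes. The members' median log2 fold change was -0.25, beside 0.01 for all genes.

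Among the Wnt-binding proteins, Frzb showed the widest gap. It had 2.40 CPM in CD otic cells and 1.93 and 3.18 in WT otic cells, against 26.5 in CD mesenchyme and 28.8 and 22.0 in WT mesenchyme. The 3 otic values lay below the 3 mesenchymal values, and the log2 fold change was -3.48 (SE 0.20, edgeR adjusted p = 5.21e-05). Sfrp2 was only slightly lower in otic cells, at 19.2 in CD and 26.1 and 20.4 in WT, against 25.2 in CD and 27.6 and 25.5 in WT mesenchyme (log2 fold change -0.39 with SE 0.08, edgeR adjusted p = 0.00509). Here each library was lower in its otic cells than in its mesenchyme, although the 2 gates overlap when libraries are mixed. The part of the neural tube transcripts given above in the mesenchymal Sfrp2 values was not tested.

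Sfrp1 did not pass in this comparison. It stood at 145 CPM in CD and 286 and 259 in WT otic cells, against 149 in CD and 193 and 114 in WT mesenchyme (log2 fold change 0.45 with SE 0.21, edgeR adjusted p = 0.114). In both WT libraries otic cells were the higher, while in the CD library the 2 gates were close. Without the CD library the fold change was 0.76 and passed (edgeR adjusted p = 0.0139, range 0.0139 to 0.463 over 11 alternatives). Wif1, a Wnt-binding protein with its own domain, had 32 UMIs in CD and 20 and 38 in WT otic cells and 16 in CD and 11 and 33 in WT mesenchyme, and did not pass (edgeR adjusted p = 0.0936).

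Of the proteins that bind Lrp co-receptors, Sostdc1 was higher in otic cells, with 12.3 CPM in CD and 11.1 and 15.6 in WT, against 4.77 in CD and 3.26 and 2.79 in WT mesenchyme. No value overlapped (log2 fold change 1.74 with SE 0.21, edgeR adjusted p = 8.26e-04). Ectodermal cells, described at the end, held 564 CPM of Sostdc1 in CD and 610.1 and 784 in WT. The part of such cells in the Sostdc1 values of the otic gate and its subsets was not tested. Dkk2 was lower in otic cells, with 0.942 in CD and 0.798 and 0.719 in WT, against 4.45 in CD and 3.04 and 3.38 in WT mesenchyme (log2 fold change -2.27 with SE 0.17, edgeR adjusted p = 1.18e-04). Dkk1 did not pass, at 14.2 in CD and 7.22 and 8.73 in WT otic cells against 10.1 in CD and 9.72 and 4.85 in WT mesenchyme (log2 fold change 0.19 with SE 0.23, edgeR adjusted p = 0.492). The WT libraries pointed in opposite directions for Dkk1: leaving out WT replicate 1 gave 0.52 and a pass (edgeR adjusted p = 0.0186, range 0.0183 to 0.833 over 11 alternatives), and leaving out WT replicate 2 gave -0.07. Dkk3 was at 3.85 in CD and 4.37 and 4.84 in WT otic cells, against 4.24 in CD and 6.07 and 3.04 in WT mesenchyme, with overlapping gates and an edgeR adjusted p of 0.698.

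The 2 Shisa genes went opposite ways. Shisa2 was higher in otic cells, at 52.0 CPM in CD and 42.6 and 37.2 in WT, against 15.7 in CD and 14.3 and 8.85 in WT mesenchyme (log2 fold change 1.66 with SE 0.10, edgeR adjusted p = 5.21e-05). Shisa3 was rare in both gates, with 49 UMIs in CD and 13 and 24 in WT mesenchyme set beside the few otic UMIs above, and was lower in otic cells (log2 fold change -3.27 with SE 0.42, edgeR adjusted p = 0.00104).

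**Figure D2:**
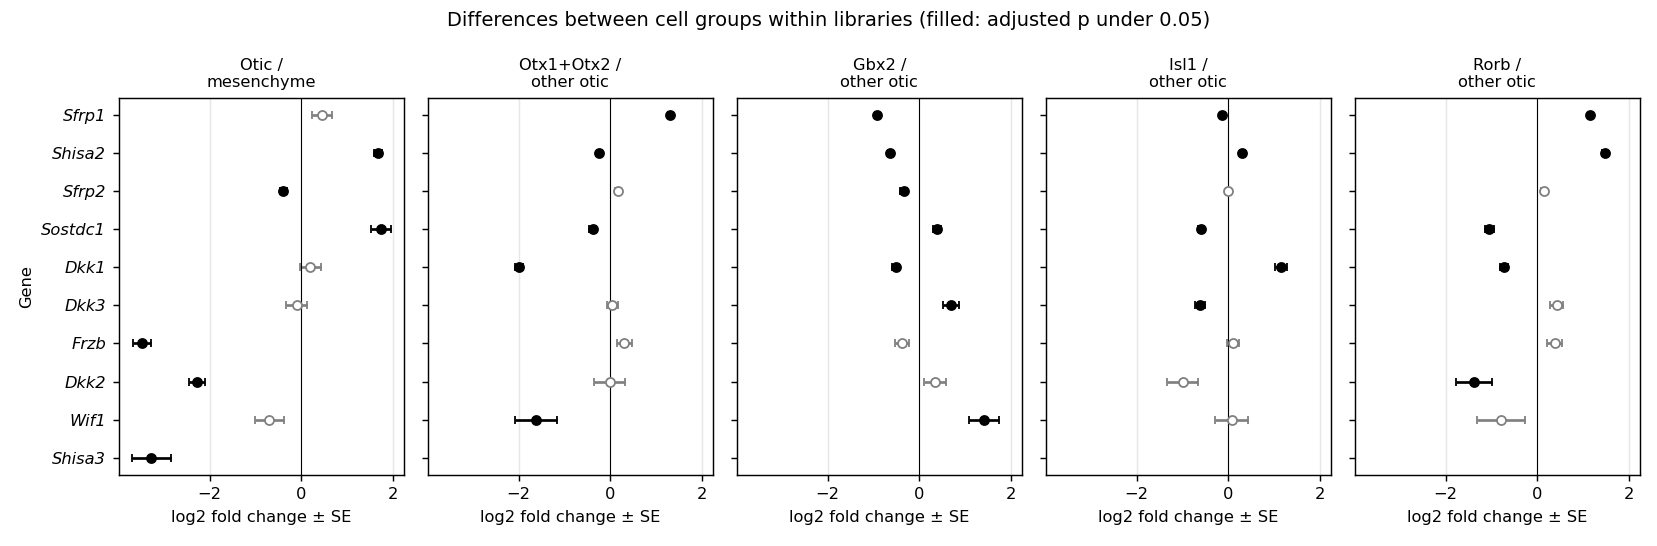
Log2 fold change of each antagonist (points, with bars of 1 SE) between otic cells and mesenchyme and between each otic subset and the other otic cells, tested across all genes with the library as a block; filled points passed an adjusted p of 0.05. Sfrp1 lies at 1.30 for the Otx1+Otx2 subset, 1.14 for the Rorb subset and -0.92 for the Gbx2 subset.

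Within the otic gate, cells were divided by transcription factor transcripts that mark regions of the otocyst. Otx1 and Otx2 are known for the ventral and lateral otocyst, Gbx2 for the dorsal and medial wall that forms the endolymphatic duct, and Isl1 for neurosensory cells; Rorb encodes a nuclear receptor. A cell with at least 1 UMI of the gene or gene pair belonged to that subset. The Otx1+Otx2 subset had 571 CD and 661 and 931 WT cells, the Gbx2 subset 890 CD and 757 and 818 WT cells, the Isl1 subset 1251 CD and 980 and 1662 WT cells, and the Rorb subset 410 CD and 415 and 825 WT cells. The subsets overlap: 26.9% of CD and 25.3% and 25.3% of WT otic cells belonged to more than 1. Cells with a UMI of a scarce gene tend to be deep, and in the Otx1+Otx2 subset the median depth was 26936 UMIs in CD and 31600 and 23791 in WT, against 21545 in CD and 23679 and 17591.5 in WT for the other otic cells. Each subset was compared with the otic cells outside it, within libraries, and Shisa3 was too scarce to be tested. As an alternative, each cell was thinned to 5000 UMIs before the gates. That left 117 CD and 114 and 217 WT cells in the Otx1+Otx2 subset, and 130 CD and 103 and 162 WT cells in the Gbx2 subset. The Isl1 subset then held 312 CD and 163 and 427 WT cells, and the Rorb subset 52 CD and 59 and 200 WT cells. Tests after thinning thus rest on fewer cells.

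In the Otx1+Otx2 subset, 1 antagonist was higher and 4 were lower than in the other otic cells, of 9 tested, where 24.2% of 15445 genes passed (12.4% higher, 11.8% lower). Sfrp1 was the one that was higher. It reached 277 CPM in the CD subset and 483 and 425 in the WT subsets, against 102 in CD and 192 and 192 in WT outside it. Each subset value was over 2 times that of its own library outside the subset (log2 fold change 1.30 with SE 0.05, edgeR adjusted p = 1.60e-06). Dkk1 was lower, with 4.19 in the CD subset and 2.79 and 2.58 in the WT subsets, against 17.5 in CD and 9.35 and 11.2 in WT outside it. The groups did not overlap (log2 fold change -1.99 with SE 0.09, edgeR adjusted p = 4.62e-06). Sostdc1 (log2 fold change -0.39), Shisa2 (-0.26) and Wif1 (-1.62, from 5 UMIs in CD and 3 and 2 in WT) also passed as lower with edgeR adjusted p from 0.00326 to 0.0361. Shisa2 and Sostdc1 no longer passed after thinning, where Shisa2 was at 0.01 and Sostdc1 at -0.50. Wif1 no longer passed when either WT replicate was left out. Sostdc1 also missed the threshold without WT replicate 1 (edgeR adjusted p = 0.0507, range over 12 alternatives up to 0.458).

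In the Rorb subset 2 antagonists were higher and 3 lower, of 9 tested, where 16% of 15499 genes passed (7.4% higher, 8.56% lower). Sfrp1 stood at 267 CPM in the CD subset and 513 and 443 in the WT subsets, against 118 in CD and 233 and 203 in WT outside it (log2 fold change 1.14 with SE 0.03, edgeR adjusted p = 2.49e-09). Shisa2 was at 109 in the CD subset and 82.2 and 76.7 in the WT subsets, against 39.3 in CD and 33.2 and 25.2 in WT outside it, with no overlap (log2 fold change 1.46 with SE 0.05, edgeR adjusted p = 1.90e-08). Both genes were thus high in Rorb cells of all 3 libraries. Dkk1 was lower, at 9.07 in the CD subset and 4.88 and 5.88 in the WT subsets against 15.4 in CD and 7.78 and 9.59 in WT outside it (log2 fold change -0.72 with SE 0.09, edgeR adjusted p = 1.67e-04). Sostdc1 was lower too, at 7.44 in the CD subset and 5.09 and 8.73 in the WT subsets against 13.3 in CD and 12.6 and 17.7 in WT outside it (log2 fold change -1.04 with SE 0.09, edgeR adjusted p = 1.16e-05). Dkk2 passed on 2 UMIs in CD and 5 and 10 in WT subset cells and no longer passed without the CD library or without WT replicate 1.

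The Gbx2 subset carried less Sfrp1 and Shisa2 than the other otic cells. In all, 3 antagonists were higher and 4 lower of 9 tested, where 32.6% of 15376 genes passed (16.4% higher, 16.2% lower). Sfrp1 was at 99.9 CPM in the CD subset and 174 and 154 in the WT subsets, against 172 in CD and 346 and 290.1 in WT outside it (log2 fold change -0.92 with SE 0.03, edgeR adjusted p = 4.53e-08). Shisa2 was at 38.3 in the CD subset and 33.2 and 25.02 in the WT subsets, against 60.1 in CD and 47.7 and 40.9 in WT outside it (log2 fold change -0.65 with SE 0.05, edgeR adjusted p = 3.32e-06). Each library was lower in its Gbx2 cells for both genes. Dkk1 (log2 fold change -0.51, SE 0.08) and Sfrp2 (-0.34, SE 0.07) were lower as well, with edgeR adjusted p of 6.94e-04 and 0.00391. After thinning Dkk1 was at -1.28, and Sfrp2 was at -0.43 and no longer passed. The higher members were Sostdc1 (log2 fold change 0.38, SE 0.08), Dkk3 (0.69, SE 0.17) and Wif1 (1.41, SE 0.33), with edgeR adjusted p of 0.00417, 0.0110 and 0.00804. Sostdc1 lost the pass with stricter gates (0.18) and after thinning (0.34). Dkk3 rested on WT replicate 2, where it had 8.91 CPM in the subset and 3.63 outside it, and without that library it was at 0.36 (edgeR adjusted p = 0.0698, range over 11 alternatives up to 0.161). Wif1 had 21 UMIs in CD and 9 and 19 in WT subset cells and missed the threshold without the CD library (edgeR adjusted p = 0.0568) or without WT replicate 2 (0.0573), in a range up to 0.173 over 10 alternatives.

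The Isl1 subset was the one in which Dkk1 was higher. Of 9 members tested, 2 were higher and 3 lower, where 24.8% of 15492 genes passed (12.6% higher, 12.2% lower). Dkk1 was at 19.8 CPM in the CD subset and 9.27 and 13.5 in the WT subsets, against 8.99 in CD and 5.72 and 4.80 in WT outside it (log2 fold change 1.14 with SE 0.12, edgeR adjusted p = 2.22e-04). All 3 subset values lay above all 3 values outside. Shisa2 was slightly higher (log2 fold change 0.30 with SE 0.06, edgeR adjusted p = 0.00481), at 55.2 in the CD subset and 46.4 and 44.1 in the WT subsets against 49.1 in CD and 39.8 and 31.6 in WT outside it, and after thinning it was at 0.00. Sostdc1 was lower, at 10.1 in the CD subset and 8.82 and 11.4 in the WT subsets against 14.3 in CD and 12.9 and 19.1 in WT outside it (log2 fold change -0.60 with SE 0.06, edgeR adjusted p = 2.07e-04). Sfrp1 differed little, at 139.9 in the CD subset and 263 and 244 in the WT subsets against 150.3 in CD and 304 and 271 in WT outside it (log2 fold change -0.15 with SE 0.02, edgeR adjusted p = 0.00233). After thinning Sfrp1 was at -0.16 and no longer passed. Dkk3 was lower as well (edgeR adjusted p = 0.00528), with a log2 fold change of -0.62 and an SE of 0.12. It lost the pass without WT replicate 1 or WT replicate 2.

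**Figure D3:**
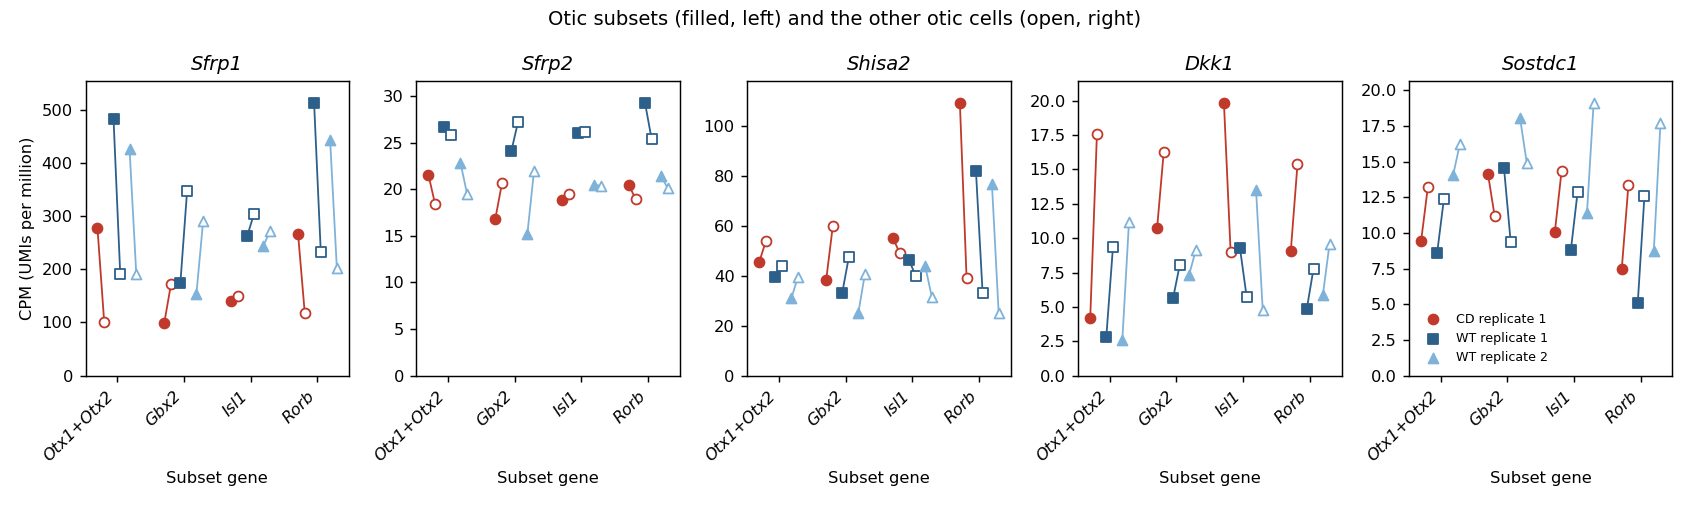
CPM of Sfrp1, Shisa2, Dkk1, Sostdc1 and Sfrp2 in each otic subset (filled, left) and in the otic cells outside it (open, right), 1 point per library. Sfrp1 is higher inside the Otx1+Otx2 and Rorb subsets in each library, and Dkk1 is lower inside the Otx1+Otx2 subset and higher inside the Isl1 subset.

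Across these subsets Sfrp1 and Shisa2 were high together in Rorb cells and low together in Gbx2 cells, but parted in Otx1+Otx2 cells. Dkk1 was lower in all of these 3 subsets, in Gbx2 cells together with Sfrp1 and in Otx1+Otx2 and Rorb cells opposite to it. Otic cells were also put in 4 classes by Otx1+Otx2 and Rorb together, a division chosen after these values had been seen and so given without a test. Sfrp1 had 333 CPM in CD and 597 and 539 in WT cells with both, and 76.6 in CD and 144 and 143 in WT cells with neither. Cells with Otx1+Otx2 alone (259 in CD, 442 and 375 in WT) and cells with Rorb alone (233 in CD, 445 and 384 in WT) were close to each other in Sfrp1 within each library. Shisa2 was highest in cells with Rorb alone, at 125 in CD and 91.5 and 88.7 in WT. Cells with both held less of it in each library, at 78.4 in CD and 70.6 and 56.9 in WT. Shisa2 was at 40.6 in CD and 35.3 and 27.2 in WT cells with neither. It was lowest in cells with Otx1+Otx2 alone, at 35.0 in CD and 28.4 and 19.7 in WT. Dkk1 was highest in cells with neither, at 19.0 in CD and 9.92 and 12.0 in WT. Cells with Rorb alone held 9.94 in CD and 6.35 and 7.98 in WT, below the cells with neither in each library. Dkk1 was at 3.15 in CD and 2.71 and 2.65 in WT cells with Otx1+Otx2 alone, and at 7.35 in CD and 3.03 and 2.42 in WT cells with both, so it was higher with both in CD and close in the WT libraries. The CD value with both rests on 32 UMIs in 7.14% of 126 cells. With Otx1+Otx2 alone there were 42 UMIs in 6.74% of 445 CD cells, so the shares of cells were close.

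**Figure D4:**
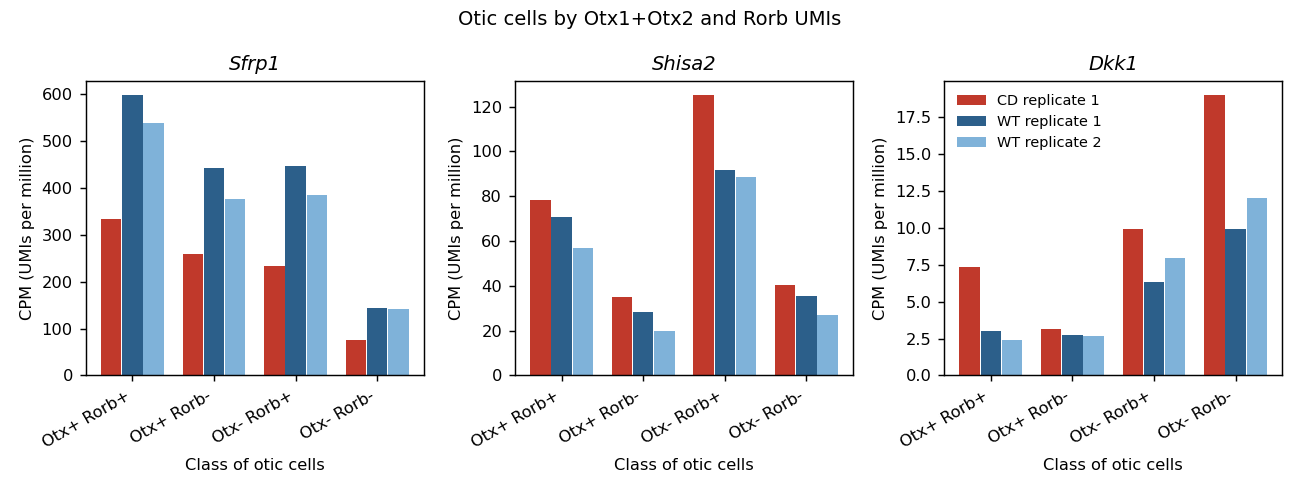
CPM of Sfrp1, Shisa2 and Dkk1 in otic cells with Otx1+Otx2 and Rorb UMIs, with either alone and with neither, 1 bar per library. Sfrp1 is highest with both (333 in CD, 597 and 539 in WT), Shisa2 is highest with Rorb alone and Dkk1 with neither.

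Promoter windows of 2 members that part in these subsets, Dkk1 (lower in Rorb and Otx1+Otx2 cells) and Shisa2 (higher in Rorb cells), are shown from RefSeq on build GRCm38.p6. Each runs from 250 bases before the transcription start to 50 after it, on the strand of the gene. The windows were searched on both strands for the TCF/LEF words CTTTGAA and CTTTGAT, the SOX words ACAAAG and ACAATG, the OTX word TAATCC and the ROR word AGGTCA; capitals mark the matches. The reverse of ACAAAG shares the letters CTTTG with the TCF/LEF words.
Dkk1, chr19:30549447-30549746, minus strand: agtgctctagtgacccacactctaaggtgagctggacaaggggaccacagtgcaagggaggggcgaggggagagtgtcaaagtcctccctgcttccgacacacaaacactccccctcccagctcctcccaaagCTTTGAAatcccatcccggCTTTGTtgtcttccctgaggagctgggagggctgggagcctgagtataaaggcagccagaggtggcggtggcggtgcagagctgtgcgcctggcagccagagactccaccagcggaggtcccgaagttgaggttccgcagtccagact
Shisa2, chr14:59625031-59625330, plus strand: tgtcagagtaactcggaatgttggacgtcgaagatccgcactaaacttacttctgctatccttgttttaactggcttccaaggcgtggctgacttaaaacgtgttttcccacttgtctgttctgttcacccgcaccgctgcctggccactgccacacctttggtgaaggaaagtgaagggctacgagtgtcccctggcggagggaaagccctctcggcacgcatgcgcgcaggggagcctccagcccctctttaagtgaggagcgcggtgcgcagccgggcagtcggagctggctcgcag
The Dkk1 window holds the TCF/LEF word CTTTGAA at position -117 from the start and the reverse of the SOX word ACAAAG at position -98, which do not overlap. The Shisa2 window holds none of these letters. Of 32851 promoter windows of this length in the table, 8.65% hold a TCF/LEF word, 28.6% a SOX word, 7.06% the OTX word and 16.3% the ROR word. The table had windows for 7 of the 10 members. In the other five there was 1 SOX match in Dkk2, 1 OTX match in Sfrp2, 1 ROR match in Frzb and none in Shisa3 and Wif1. Such matches describe the letters of the window and do not show that a factor binds.

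The comparison of the CD library with the 2 WT libraries asks how 1 Sox9Y440X allele changes each antagonist. No member passed in the otic cells, in mesenchyme or in any of the 4 subsets with edgeR. In otic cells 16 of 17161 genes passed, 0.0932% of those tested, so few genes of any kind were called. An unadjusted edgeR p under 0.05 was found for 2 of 9 members tested and for 700 of all 17161 genes. DESeq2 called 1 member, Sfrp1, and 56 genes in all. The WT pair supplies the only residual degree of freedom, and the single CD library was taken to vary as they do. Most of the spread behind each p was borrowed across genes, with a median of 8.75 prior degrees of freedom in otic cells.

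Sfrp1 was the member with the smallest p. It had 145 CPM in CD otic cells and 286 and 259 in WT otic cells. The CD value lay below both WT values, whose gap was much narrower than their distance from CD (log2 fold change -0.96, SE 0.15, unadjusted p = 7.67e-05, edgeR adjusted p = 0.0685). It passed in 4 of 7 alternatives that could be tested, with adjusted p from 1.97e-06 (DESeq2) to 0.112. Against each WT library alone the fold change was -1.03 and -0.90. The same direction was found in every otic subset, with fold changes of -0.77 (SE 0.14) in Otx1+Otx2 cells, -0.76 (SE 0.16) in Gbx2 cells, -0.91 (SE 0.15) in Isl1 cells and -0.91 (SE 0.19) in Rorb cells, and edgeR adjusted p of 0.0607, 0.170, 0.109 and 0.216. These subsets share cells, so their values are not independent of one another. The subsets with more Sfrp1 were smaller in CD. Otx1+Otx2 cells made up 20.55% of CD and 26.05% and 22.8% of WT otic cells, and Rorb cells 14.76% and 16.36% and 20.21%. Gbx2 cells, with less Sfrp1, made up 32.04% of CD and 29.84% and 20.03% of WT otic cells. The part of these shares in the Sfrp1 values of all otic cells was not tested.

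In mesenchyme Sfrp1 stood at 149 in CD and 193 and 114 in WT, so that the CD value lay between the WT values (log2 fold change -0.07 with SE 0.26, edgeR adjusted p = 1.00). Its CD effect in otic cells minus that in mesenchyme was -0.94 (SE 0.23, unadjusted p = 0.00582, edgeR adjusted p = 1.00) and did not pass. In that test of the difference no gene passed with edgeR (0% of 17368), 429 genes had an unadjusted p under 0.05 and DESeq2 called 6.

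The share of otic cells with a Sfrp1 UMI was also lower in CD. Before thinning it was 58.6% of CD cells and 76.2% and 71.5% of WT cells. After each cell was thinned to 5000 UMIs it was 34.9% of CD cells (exact 95% interval 33.1 to 36.7%) and 53.8% (51.8 to 55.7%) and 50.5% (49.0 to 52.1%) of WT cells, with 44 CD and 20 and 111 WT cells too shallow to be included. These shares keep the gate drawn on full counts, whereas the fits after thinning draw the gates again on thinned counts. Cells with a thinned UMI had 1.91 of them on average in CD and 2.54 and 2.50 in WT. Endothelial cells, taken as a rough guide to free RNA in the droplets, had median depths of 19958 UMIs in CD and 19887 and 15644 in WT. That they make no Sfrp1 of their own was assumed and not tested. Their thinned share was 0% (0 to 3.21%) in CD and 1.95% (0.404 to 5.59%) and 6.36% (2.60 to 12.7%) in WT. The interval of the thinned share in CD otic cells lay below those of both WT libraries; these intervals cover counting error only, and the UMIs per positive cell are given without one.

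Dkk1 pointed the other way. It had 14.2 CPM in CD otic cells and 7.22 and 8.73 in WT otic cells (log2 fold change 0.78, SE 0.21, unadjusted p = 0.00483, edgeR adjusted p = 0.474). The CD value was above both WT values. It passed in 1 of 7 alternatives, after thinning (1.10, adjusted p = 0.0378, range 0.0378 to 0.561). The thinned share of otic cells with a Dkk1 UMI was 5.93% in CD (5.07 to 6.88%) and 3.26% (2.60 to 4.03%) and 3.52% (2.97 to 4.15%) in WT, against unthinned shares of 17.4% in CD and 10.3% and 9.55% in WT. In the subsets the fold change was 0.58 (SE 0.32) in Otx1+Otx2, 0.68 (SE 0.27) in Gbx2, 0.74 (SE 0.24) in Isl1 and 0.68 (SE 0.30) in Rorb cells, none of which passed. Isl1 cells, with more Dkk1, made up 45.03% of CD and 38.63% and 40.71% of WT otic cells. Dkk1 was lower in Gbx2 cells, whose share was also higher in CD, and in Otx1+Otx2 and Rorb cells, whose shares were lower. The part of these shares in the Dkk1 values of all otic cells was not tested. In mesenchyme the fold change of Dkk1 was 0.45 (SE 0.36), with 10.1 in CD, 9.72 in WT replicate 1 and 4.85 in WT replicate 2. The otic and mesenchymal effects of Dkk1 differed by 0.26 (SE 0.47, edgeR adjusted p = 1.00), a value that was -0.36 without WT replicate 1 and 0.89 without WT replicate 2.

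Shisa2, with 52.0 in CD and 42.6 and 37.2 in WT otic cells, had a fold change of 0.33 (SE 0.15, unadjusted p = 0.0573), and after thinning it was -0.01. The thinned share of otic cells with a Shisa2 UMI was 17.2% in CD (15.8 to 18.6%) and 15.8% (14.4 to 17.3%) and 15.4% (14.3 to 16.5%) in WT, with overlapping intervals. Unthinned, the shares were 42.4% in CD and 44.6% and 35.6% in WT. Sfrp2 had a fold change of -0.33 (SE 0.19) in otic cells and -0.11 (SE 0.20) in mesenchyme. Sostdc1 was at -0.18 (SE 0.23) in otic cells and 0.62 (SE 0.32) in mesenchyme, and its difference of -0.82 (SE 0.31, unadjusted p = 0.0390, edgeR adjusted p = 1.00) did not pass. Leaving out either WT library moved that difference between -1.13 and -0.45, and without WT replicate 2 the otic value was 0.08. Frzb, whose main site is mesenchyme, was at 0.02 there (SE 0.22), with 26.5 in CD between 28.8 and 22.0 in WT.

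Dkk3 was at -0.31 (SE 0.24) in otic cells. The remaining members were scarcer, with Dkk2 at 0.26 (SE 0.39) and Wif1 at 0.30 (SE 0.55) in otic cells, and Shisa3 could be tested in mesenchyme alone of the 6 gates, at 1.13 (SE 0.60) on 49 UMIs in CD and 13 and 24 in WT. In mesenchyme 6 of 15611 genes passed (0.0384%). There 0 of 10 members and 185 of all genes had an unadjusted edgeR p under 0.05, and DESeq2 called 0 members and 8 genes in all. The summed erythroid level given above was over 2 times as high in CD mesenchyme as in either WT library, and its part in the mesenchymal values was not tested. In the Otx1+Otx2, Gbx2, Isl1 and Rorb subsets 0.213%, 0.181%, 0.0569% and 0.021% of genes passed. An unadjusted edgeR p under 0.05 was found for 1 to 3 members in each, beside 707 of 15058, 534 of 15463, 498 of 15829 and 575 of 14257 genes. DESeq2 called 1 member in each, Sfrp1, and 36, 34, 28 and 16 genes in all.

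**Figure D5:**
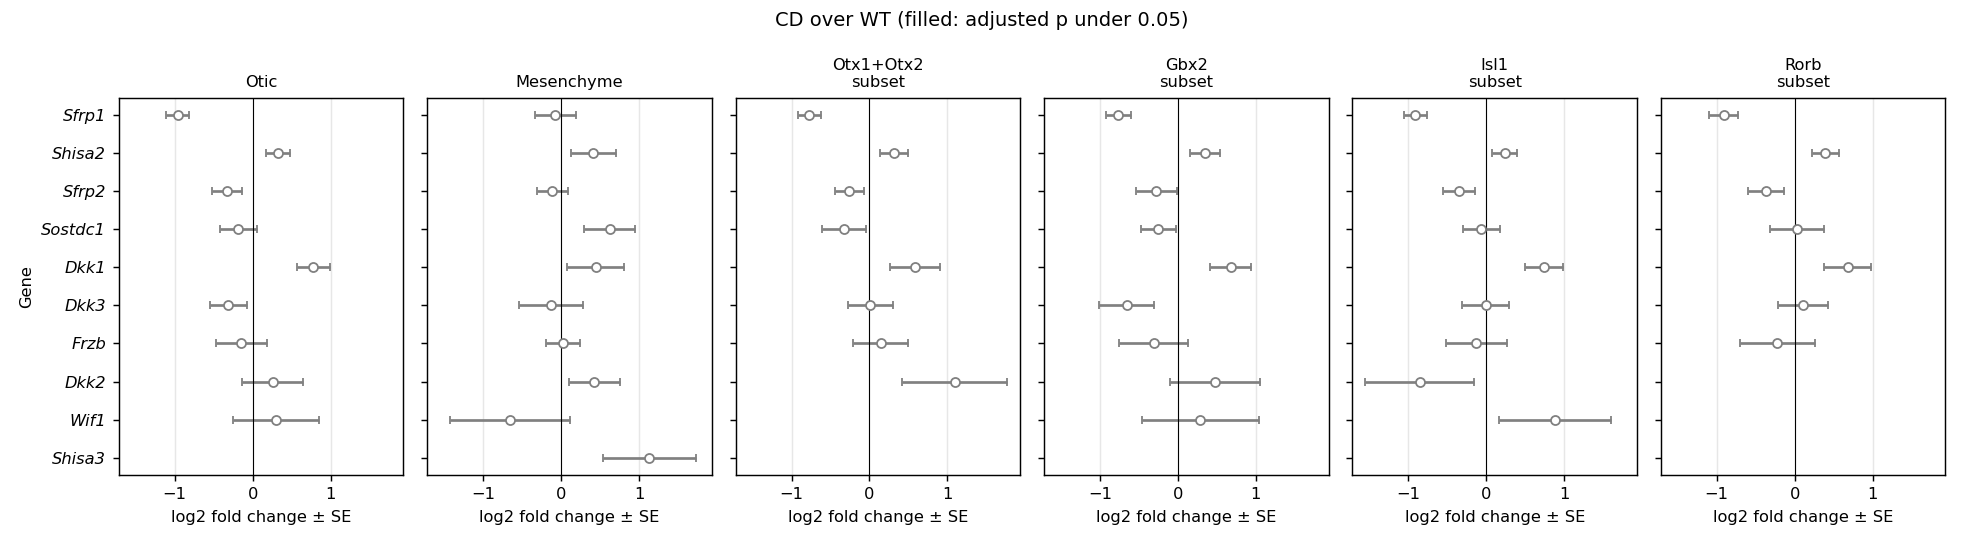
Log2 fold change of each antagonist (points, with bars of 1 SE) between the CD library and the 2 WT libraries in otic cells, mesenchyme and the 4 otic subsets. Sfrp1 lies between -0.96 and -0.76 in the 5 otic gates and at -0.07 in mesenchyme, and no member passed an adjusted p of 0.05.

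Other genes of the pathway were counted in the same fits. The feedback targets, genes that the pathway itself switches on, differed between the subsets in how many were higher or lower. Of 11 tested, 8 were higher and 1 lower in Gbx2 cells, 0 higher and 8 lower in Otx1+Otx2 cells, 0 higher and 8 lower in Rorb cells, and 2 higher and 4 lower in Isl1 cells. Of all genes, 16.4% were higher and 16.2% lower in Gbx2 cells, and 12.4% and 11.8% in Otx1+Otx2 cells. The shares were 7.4% and 8.56% in Rorb cells and 12.6% and 12.2% in Isl1 cells. The median log2 fold changes of the feedback targets were 0.60, -0.65, -0.53 and -0.12, beside medians between -0.01 and 0.01 for all genes. In Gbx2 cells the 4 of smallest p were Sp5 (2.40), Axin2 (1.17), Nkd1 (0.79) and Notum (1.57); in Otx1+Otx2 cells they were Sp5 (-1.86), Notum (-1.82), Nkd1 (-0.85) and Lef1 (-1.04). Sp5 and Lef1 are transcription factors, Axin2 and Nkd1 are intracellular inhibitors, and Notum is a secreted enzyme that removes the lipid of Wnt proteins. In Rorb cells Nkd1 (-0.66), Lef1 (-0.58), Notum (-1.46) and Axin2 (-0.53) led, and in Isl1 cells Sp5 (-1.33), Lef1 (0.57), Nkd1 (-0.37) and Ccnd1 (0.17). Sfrp1 was thus higher in the 2 subsets where 8 feedback targets were lower and lower in the 1 where 8 were higher, while in Isl1 cells Sfrp1 (-0.15) was lower and so were 4 of the 6 feedback targets that passed. The likeness of these patterns was not tested.

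Antagonists outside the set share Notum and 2 others with the feedback targets, and were divided more evenly in Gbx2 cells. Of 10 tested, 4 were higher and 3 lower in Gbx2 cells, 0 higher and 4 lower in Otx1+Otx2 cells, 0 higher and 4 lower in Rorb cells, and 2 higher and 3 lower in Isl1 cells. Of all genes 32.6%, 24.2%, 16% and 24.8% passed in these subsets, in the same order. Apcdd1, a membrane inhibitor that binds Wnt and Lrp proteins, had the smallest p in each of the 4 comparisons, with log2 fold changes of 2.25, -1.70, -1.47 and -1.31. Draxin, a secreted guidance protein that also inhibits Wnt signalling, was higher in Isl1 cells (1.37). Between otic cells and mesenchyme 6 of 11 were higher and 3 lower, where 63.4% of all genes passed (32.9% higher, 30.5% lower). They were led by Igfbp4 (-2.28), the Wnt receptor ubiquitin ligase Rnf43 (4.72), the Dkk1 receptor Kremen1 (1.51) and Apcdd1 (1.80).

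Among 23 Wnt ligands and R-spondins, the secreted proteins that amplify Wnt signals, 7 were higher and 3 lower of 15 tested in Gbx2 cells, led by Wnt2b (3.34), Wnt6 (1.95), Rspo3 (1.63) and Wnt3a (2.31). In Otx1+Otx2 cells 3 were higher and 7 lower of 16 tested, led by Wnt6 (-2.02), Rspo2 (3.21), Wnt7b (-0.68) and Wnt2b (-1.98). In Isl1 cells 0 were higher and 7 lower of 15, led by Rspo3 (-1.31), and in Rorb cells 1 was higher and 7 lower of 15, led by Wnt6 (-1.79). Frizzled and other receptors were divided more evenly, with 5 higher and 9 lower of 18 in Gbx2 cells, 5 and 6 in Otx1+Otx2 cells, 4 and 4 in Isl1 cells and 6 and 4 in Rorb cells. Beside the counts of receptors, ligands and R-spondins, 32.6%, 24.2%, 24.8% and 16% of all genes passed, in the same order of subsets. Fzd7, a Frizzled receptor, was higher in Rorb cells (1.04) and Otx1+Otx2 cells (0.52) and lower in Gbx2 cells (-0.48), and Lgr5, an R-spondin receptor, was higher in Isl1 (1.34) and Rorb cells (0.74) and lower in Otx1+Otx2 (-1.27) and Gbx2 cells (-0.63). Each of these passed with edgeR. Between otic cells and mesenchyme 7 ligands and R-spondins were higher and 5 lower of 17, led by Wnt7b (4.95) and Wnt5a (-1.43), 10 receptors were higher and 5 lower of 19, and 6 feedback targets were higher and 4 lower of 11, where 63.4% of all genes passed (32.9% higher, 30.5% lower).

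Between CD and WT, 0 genes of these 4 lists passed with edgeR in otic cells or in mesenchyme. At an unadjusted edgeR p under 0.05 in otic cells stood 3 of 11 other antagonists and 6 of 19 ligands and R-spondins. So did 2 of 19 receptors and 3 of 11 feedback targets, beside 700 of all 17161 genes. In mesenchyme the counts were 1 of 9, 1 of 16, 0 of 19 and 1 of 10, beside 185 of all 15611 genes. DESeq2 called 1 ligand, Wnt7b, in otic cells and 0 of these genes in mesenchyme. Wnt7b was nearest, at 14.1 CPM in CD and 28.9 and 33.1 in WT otic cells (log2 fold change -1.19, edgeR adjusted p = 0.0513). It was lower in CD and passed in all 4 subsets. The log2 fold changes were -1.40 in Otx1+Otx2, -1.18 in Gbx2, -1.37 in Isl1 and -1.68 in Rorb cells, with edgeR adjusted p of 0.0172, 0.0360, 0.0452 and 0.0238. The 4 subsets share cells and rest on the same 1 CD library, so these values are not independent of one another. Wnt7b was not examined under the other settings, where the number of genes called in these subsets moved widely. Notum stood at 17.5 in CD and 9.56 and 7.95 in WT otic cells (log2 fold change 0.94, edgeR adjusted p = 0.248), and Lef1 at 62.3 in CD and 43.6 and 42.2 in WT (0.48, edgeR adjusted p = 0.585). In otic cells 8 of 11 feedback targets had a positive fold change (median 0.16) and 6 of 11 other antagonists did (median 0.14), beside 4 of 9 members (median -0.15).

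The genes whose levels were most like those of the 3 antagonists above 20 CPM were sought over otic cells, by the lowest Pearson correlation of log-normalised counts in the 3 libraries. For Sfrp1 these were Eya4 (r 0.54 in CD, 0.52 and 0.52 in WT), Sobp (0.49 in CD, 0.50 and 0.48 in WT) and Capn6 (0.47 in CD, 0.54 and 0.52 in WT). For Shisa2, Brip1 (0.49 in CD, 0.50 and 0.42 in WT) and Otol1 (0.42 in CD, 0.47 and 0.39 in WT) were among them. Sfrp2 had no gene at 0.2 or above in all 3 libraries. Sfrp1 and Shisa2 correlated with each other at 0.40 in CD and 0.35 and 0.37 in WT, and Sfrp1 and Dkk1 at -0.16 in CD and -0.16 and -0.10 in WT. These are over 2778 CD and 2537 and 4083 WT otic cells, which share a library and differ in depth, and are given as a description.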

How the data were processed

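The authors deposited 1 matrix of raw UMI counts per library, with genes in rows and cell barcodes in columns, made with the Chromium 3' chemistry per the labels' protocols and with Cell Ranger 6.0 and build mm39 per the submitters' processing notes. Total counts were 186439890 UMIs in CD and 157373393 and 202584468 in WT replicates 1 and 2.

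UMI counts were summed per library and gate, since cells are not replicates, and tested with edgeR 4.0.16 in R 4.3.3 (TMM, filterByExpr, quasi-likelihood test, Benjamini-Hochberg adjustment over all genes tested, threshold 0.05). CD was compared with WT without a block, with 1 residual degree of freedom; a permutation of 1 against 2 libraries cannot go below p = 0.333. Contrasts within libraries had the library as a block, because both gates come from the same library. SE values were obtained by dividing the fold change (log2) by the root of its F statistic. As a check of the sign and size of fold changes alone, fits were run on counts simulated with the same dispersion for all genes. Such counts do not carry the real spread between libraries. Doublets called by Scrublet in scanpy 1.11.5 (3.29% of CD and 2.80% and 3.39% of WT cells) stayed in, and leaving them out was an alternative, as were DESeq2 1.42.0, other cell filters and gates, thinning, and leaving out libraries. Intervals on shares are Clopper-Pearson.

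The members and gene lists were chosen with earlier results of these data known. Named were the 10 members in all comparisons, up to 4 listed genes past the threshold with the smallest p (or the 2 of smallest p as values), and up to 3 genes most correlated with each member averaging at least 20 CPM. Lgr5 in the Gbx2 and Rorb subsets lies outside this rule and was named after its values were seen. One gene that this rule names is not reported here.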

Additional observations from a re-analysis of the deposited data

How the results depend on the processing

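Of 956 values of members tested under other settings, 846 kept their direction and their side of the threshold, 27 came to pass, 44 no longer passed and 39 reversed; none of the 28 member results that passed reversed except Shisa2 in the Otx1+Otx2 subset after thinning. With RLE factors all 108 member results kept direction and side. The cause of the changes below was not tested. Leaving out a WT library from CD against WT gave 124 further values, which have no test, and 20 of them turned their sign. Thinning left 1044 CD and 919 and 1828 WT otic cells in the gate.

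The number of genes called between CD and WT moved as follows. In otic cells, where the report gives 16, it was 56 with DESeq2, 155 with no gene filter, 9 with the stricter cell filter (at least 2000 genes, at most 5% mitochondrial UMIs), 6 without Scrublet calls, 50 with stricter gates and 46 after thinning. In mesenchyme (6) it was 54 with no gene filter and 0 both without Scrublet calls and after thinning. In the Otx1+Otx2 subset (32) it was 18 with stricter cells, 1 without Scrublet calls, 56 with stricter gates, 13 after thinning and 64 when 2 UMIs of the subset genes were required. In the Gbx2 subset (28) it was 137 with no gene filter, 8 with stricter cells, 8 without Scrublet calls, 10 after thinning and 1 with 2 UMIs. In the Isl1 subset (9) it was 28 with DESeq2, 137 with no gene filter, 4 after thinning and 16 with 2 UMIs. In the Rorb subset (3) it was 16 with DESeq2, 119 with no gene filter, 1 with stricter cells, 10 without Scrublet calls and 24 after thinning. For the difference between otic cells and mesenchyme (0) it was 6 with DESeq2, 1 with stricter gates and 1 after thinning.

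Between subsets and other otic cells the counts were 3735 (Otx1+Otx2), 5013 (Gbx2), 3843 (Isl1) and 2474 (Rorb). They became 1838, 2659, 1702 and 1154 with DESeq2 and 678, 831, 483 and 334 after thinning, and the Rorb count was 1473 with stricter gates. Leaving out 1 library gave 2267 to 2715 in the Otx1+Otx2 subset and 2265 to 3691 in the Isl1 subset. Without the replicate block, which pairs the gates of a library, the counts were 807, 1113, 591 and 254, and 19 member results no longer passed. CD and WT were not paired, since the labels do not say that a shared replicate number links a CD library to a WT library.

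Reversed values among those tested, none of which passed, were as follows between CD and WT. With stricter gates Frzb was at 0.085 in otic, 0.43 in Gbx2 and 0.083 in Isl1 cells, Dkk2 at -0.37 in Gbx2, Dkk3 at 0.33 in Isl1 and Sostdc1 at -0.59 in Rorb cells. After thinning Shisa2 was at -0.013 in otic, -0.67 in Gbx2, -0.80 in Isl1 and -0.70 in Rorb cells, Sfrp2 at 0.39 in Otx1+Otx2 and 0.15 in Gbx2, and Sostdc1 at 1.10 in Gbx2 cells. Without Scrublet calls Frzb was at -0.30 in Otx1+Otx2 and Sostdc1 at -0.25 in Rorb cells. With 2 UMIs Dkk3 was at 0.15 and Sostdc1 at 0.025 in Isl1 cells and Frzb at 0.032 in Rorb cells, and with stricter cells Dkk3 was at -0.068 in Otx1+Otx2 cells. For the difference between otic cells and mesenchyme Frzb was at 0.042 with stricter gates, and Dkk2 at 0.071 with stricter cells and 0.053 without Scrublet calls. Leaving out 1 WT library at a time turned the sign, with these ranges: in otic cells Frzb (-0.47 to 0.26) and Sostdc1 (-0.42 to 0.08), in mesenchyme Sfrp1 (-0.40 to 0.34), Frzb (-0.15 to 0.21) and Dkk3 (-0.55 to 0.42), in Otx1+Otx2 cells Frzb (-0.04 to 0.34), Dkk3 (-0.04 to 0.06) and Sostdc1 (-0.65 to 0.08), in Gbx2 cells Sfrp2 (-0.57 to 0.09) and Wif1 (-0.29 to 1.13), in Isl1 cells Frzb (-0.48 to 0.34), Dkk3 (-0.07 to 0.04) and Sostdc1 (-0.24 to 0.14), and in Rorb cells Frzb (-0.62 to 0.36) and Sostdc1 (-0.30 to 0.47). For the difference between otic cells and mesenchyme they were Frzb (-0.68 to 0.40), Dkk1 (-0.36 to 0.89), Dkk3 (-0.82 to 0.30), Shisa2 (-0.36 to 0.11) and Shisa3 (-1.30 to 0.73).

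Within libraries, leaving out 1 library gave -0.065 to 0.52 for Dkk1 and -0.44 to 0.13 for Dkk3 between otic cells and mesenchyme, -0.45 to 0.42 for Dkk2 and -0.092 to 0.14 for Dkk3 in the Otx1+Otx2 subset, and -0.029 to 0.0069 for Sfrp2 and -0.36 to 0.30 for Wif1 in the Isl1 subset. In the Otx1+Otx2 subset Dkk2 was at 0.16 with 2 UMIs and 0.028 without the replicate block, Dkk3 at -0.0011 without Scrublet calls and -0.0023 with 2 UMIs, and Shisa2 at 0.011 after thinning. In the Isl1 subset Sfrp2 was at 0.031 without Scrublet calls and 0.046 after thinning, Frzb at -0.046 without Scrublet calls and -0.024 with stricter gates, and Wif1 at -0.072 without Scrublet calls. Frzb was at -0.013 in the Rorb subset with 2 UMIs. Depth limits Shisa3, Wif1 and Dkk2 most, with 2 to 67 UMIs per library over all otic cells.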

Other observations

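Sostdc1 and Sfrp2 had further sites outside the otic and mesenchymal gates, in gates drawn after their levels had been seen and so given as values. Epcam-positive cells with at most 1 otic-gate UMI and at least 2 UMIs of the ectodermal keratin genes Krt5, Krt14 and Krt15 and of Trp63 numbered 48 in CD and 31 and 51 in WT. They held 564 CPM of Sostdc1 in CD and 610.1 and 784 in WT, and 93.8% of these cells in CD and 87.1% and 92.2% in WT had at least 1 UMI. These few cells carried 52.9% of the Sostdc1 UMIs in CD and 47.9% and 53.5% in WT among cells outside the otic, mesenchymal, endothelial and neuronal gates.

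Cells with at least 3 UMIs of the neural tube genes Fabp7, Pax6, Sox1, Hes5 and Olig3, and with no Epcam, Prrx1 or Twist1, numbered 212 in CD and 375 and 92 in WT. Sfrp2 stood there at 166 CPM in CD and 180.0 and 83.8 in WT, above its otic level in each library. Sfrp1 was at 212 in CD and 261 and 236 in WT in the same cells. Dkk1 was almost absent from them, with 0 UMIs in CD and 0 and 1 in WT, and Shisa2 was at 11.7 CPM in CD and 7.96 and 12.3 in WT.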
